A study of Mus musculus with 20 samples.

Results

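Ribosomal protein genes encode the proteins of the small (Rps) and large (Rpl) subunits of the cytosolic ribosome. Their promoters were described in GFP-sorted cells that descend from Nkx2.1-expressing progenitors, taken from the neocortex of mouse pups at postnatal day 7 or 8. Members were the regions of the authors' consensus ATAC-seq table that are annotated as promoter and named for an Rps or Rpl gene, or for Rpsa, Rplp0, Rplp1 or Rplp2, leaving out pseudogenes and the Rps6k kinases. They numbered 71 regions of 70 genes, among 13909 promoter regions and 32120 regions in all. The members comprised 28 regions of small subunit genes, 39 of large subunit genes and 4 of divergent paralogues, namely Rpl22l1, Rpl7l1, Rps27l and Rps4l. Rpl13a had 2 regions and every other gene 1.

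WT cells came from Nkx2.1-Cre; Ai3 mice and Tcf4 cKO cells from Tcf4 f/f; Nkx2.1-Cre; Ai3 mice, so both groups carried the Cre driver and the GFP reporter and differed in the floxed alleles of Tcf4, a bHLH transcription factor that binds E-boxes. ATAC-seq, which reads open chromatin, and Cut&Tag for H3K27ac, H3K4me1 and H3K27me3 had 2 libraries per genotype. Tcf4 binding was measured by anti-Flag Cut&Tag in 2 libraries of the Tcf4-tag line, in which Nkx2.1-Cre switches on an HA and Flag tag at the end of the endogenous protein. The Nkx2.1 lineage of the neocortex includes interneurons as well as glia, so the sorted cells are a mixture. The files used hold no measure of Tcf4 itself, so its loss was not checked here. No control library was used for the Cut&Tag peaks. Sorted cells were measured in bulk, and a change in the mix of cell types and a change within cells cannot be told apart.

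The lists held 54162 to 72308 ATAC-seq peaks, 22026 to 28413 H3K27ac peaks, 51510 to 72790 H3K4me1 peaks, 15085 to 19182 H3K27me3 peaks, and 28606 and 16834 Tcf4-tag peaks. Read depth is unknown. Of 6 oligodendrocyte lineage markers, 4 had a promoter region and 1, Olig1, carried H3K27ac in both WT libraries. Of 6 astrocyte markers, 5 had a promoter region and 2, Fgfr3 and Sox9, carried H3K27ac in both. No interneuron, microglia, endothelium or projection neuron marker carried H3K27ac in both WT libraries, and 1 projection neuron marker did in both Tcf4 cKO libraries. In both Tcf4 cKO libraries, 1 oligodendrocyte lineage marker and 1 astrocyte marker carried it. Defining markers such as Sox10, Lhx6, Aqp4 and Cx3cr1 had no promoter region in the table.

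Ribosomal proteins are needed in nearly equal amounts, and their genes are among the most transcribed in dividing and growing cells. Active promoters carry H3K27ac on the nucleosomes beside the start site, H3K4me1 lies mainly on enhancers and on the shoulders of promoters, and H3K27me3 is laid down by Polycomb complexes at repressed genes. Ribosomal protein transcripts typically begin with a C followed by a run of pyrimidines, the terminal oligopyrimidine (TOP) sequence through which mTOR signalling controls their translation.

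The start sites are shown first because they are what these promoters are best known for. RefSeq promoter windows on GRCm38.p6 were matched to 50 of the 71 regions and to 9578 of all promoter regions. At 11 of the 50 (22%) the RefSeq start was a C followed by at least 4 pyrimidines, against 2.26% of all matched promoter regions. With such a run beginning anywhere within 10 bases of the start, the shares were 29 of 50 (58.0%) and 31.6%. Each line gives 30 bases before the start and 20 from it on, in the direction of transcription, with the pyrimidine run in capitals.
Rpl38, chr11:114668550-114668599, plus strand: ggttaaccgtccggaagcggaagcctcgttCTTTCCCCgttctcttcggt
Rpl15, chr14:18270967-18271016, minus strand: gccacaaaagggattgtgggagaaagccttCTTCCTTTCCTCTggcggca
Rps10, chr17:27635225-27635274, minus strand: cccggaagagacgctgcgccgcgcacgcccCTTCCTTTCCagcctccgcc
Rps18, chr17:33955646-33955695, minus strand: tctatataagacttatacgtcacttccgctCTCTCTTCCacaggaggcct
Rpl35, chr2:39005112-39005161, minus strand: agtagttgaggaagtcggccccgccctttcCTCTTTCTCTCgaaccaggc
Rps21, chr2:180257349-180257398, plus strand: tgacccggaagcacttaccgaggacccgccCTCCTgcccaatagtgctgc
Rps6, chr4:86857348-86857397, minus strand: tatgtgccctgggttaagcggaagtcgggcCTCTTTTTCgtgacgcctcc
Rpl28, chr7:4792935-4792984, plus strand: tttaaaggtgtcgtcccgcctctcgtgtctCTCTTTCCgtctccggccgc
Rps15a, chr7:118116128-118116177, minus strand: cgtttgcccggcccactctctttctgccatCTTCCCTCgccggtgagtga
Rplp2, chr7:141447621-141447670, plus strand: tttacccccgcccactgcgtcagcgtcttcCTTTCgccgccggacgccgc
Rpl14, chr9:120571487-120571536, plus strand: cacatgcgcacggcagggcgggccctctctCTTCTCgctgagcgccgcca
Rps6, a subunit protein phosphorylated by S6 kinase, and Rpl38, known for its role in translation of Hox transcripts, each began with such a run. The longest run, 13 bases, was that of Rpl15, and the shortest, 5 bases, were those of Rps21 and Rplp2.

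A core of the motif bound by ETS factors, CGGAAG, also lay close to these start sites. It was found on either strand from 60 bases before to 20 bases after the RefSeq start in 20 of 50 members (40%) and in 15.5% of all matched promoter regions. The 6 of these with the highest WT accessibility, among members whose sequence is printed nowhere else here, are given with the ETS core in capitals, read as CGGAAG or as CTTCCG on the strand of the gene.
Rpl37, chr15:5116553-5116632, plus strand: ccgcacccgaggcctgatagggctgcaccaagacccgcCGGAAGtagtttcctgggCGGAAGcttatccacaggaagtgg
Rpl34, chr3:130730318-130730397, minus strand: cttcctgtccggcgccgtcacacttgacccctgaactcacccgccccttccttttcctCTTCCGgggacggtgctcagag
Rps3a1, chr3:86142649-86142728, minus strand: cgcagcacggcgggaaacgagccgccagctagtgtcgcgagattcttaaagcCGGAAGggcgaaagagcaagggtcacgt
Rpl31, chr1:39367791-39367870, plus strand: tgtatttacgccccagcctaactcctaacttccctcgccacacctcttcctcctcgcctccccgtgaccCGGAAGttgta
Rpl11, chr4:136053374-136053453, minus strand: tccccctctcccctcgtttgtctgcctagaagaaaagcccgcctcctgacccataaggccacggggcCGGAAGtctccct
Rps27l, chr9:66946026-66946105, plus strand: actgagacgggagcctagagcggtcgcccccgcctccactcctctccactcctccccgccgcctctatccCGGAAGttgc
Rpl37 held 2 cores and the other 5 held 1 each. In Rpl37 and Rpl34 a core spanned the start itself, in Rps3a1 it lay just upstream, and in Rpl31, Rpl11 and Rps27l just downstream.

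Chromatin at the ribosomal protein promoters was open in every library. Presence in the table already required reproducible peaks, so the count of 71 of 71 regions with a peak in all 4 ATAC-seq libraries is set by the choice, as is that of 99.0% of all promoter regions. The height of the peaks was not set by it. The median fold enrichment at the members was 9.74 and 9.49 in WT replicates 1 and 2 and 8.82 and 8.65 in Tcf4 cKO replicates 1 and 2. At all promoter regions it was 8.49, 8.69, 8.23 and 8.09. The members were thus higher than the promoter median in each library, at a median percentile of 68.1, 61.8, 59.2 and 58.7 among promoter regions with a peak. Proteasome promoters stood higher, at 82.5, 81.2, 83.3 and 77.1, as did mitochondrial ribosomal protein promoters at 71.5, 79.2, 73.9 and 75.9. Ribosome assembly factors were at 73.9, 72.5, 73.2 and 75.8, and translation factors at 60.5, 53.0, 60.1 and 57.1. Promoters acetylated in both WT libraries were at 58.5, 57.1, 57.8 and 58.2.

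**Figure D1:**
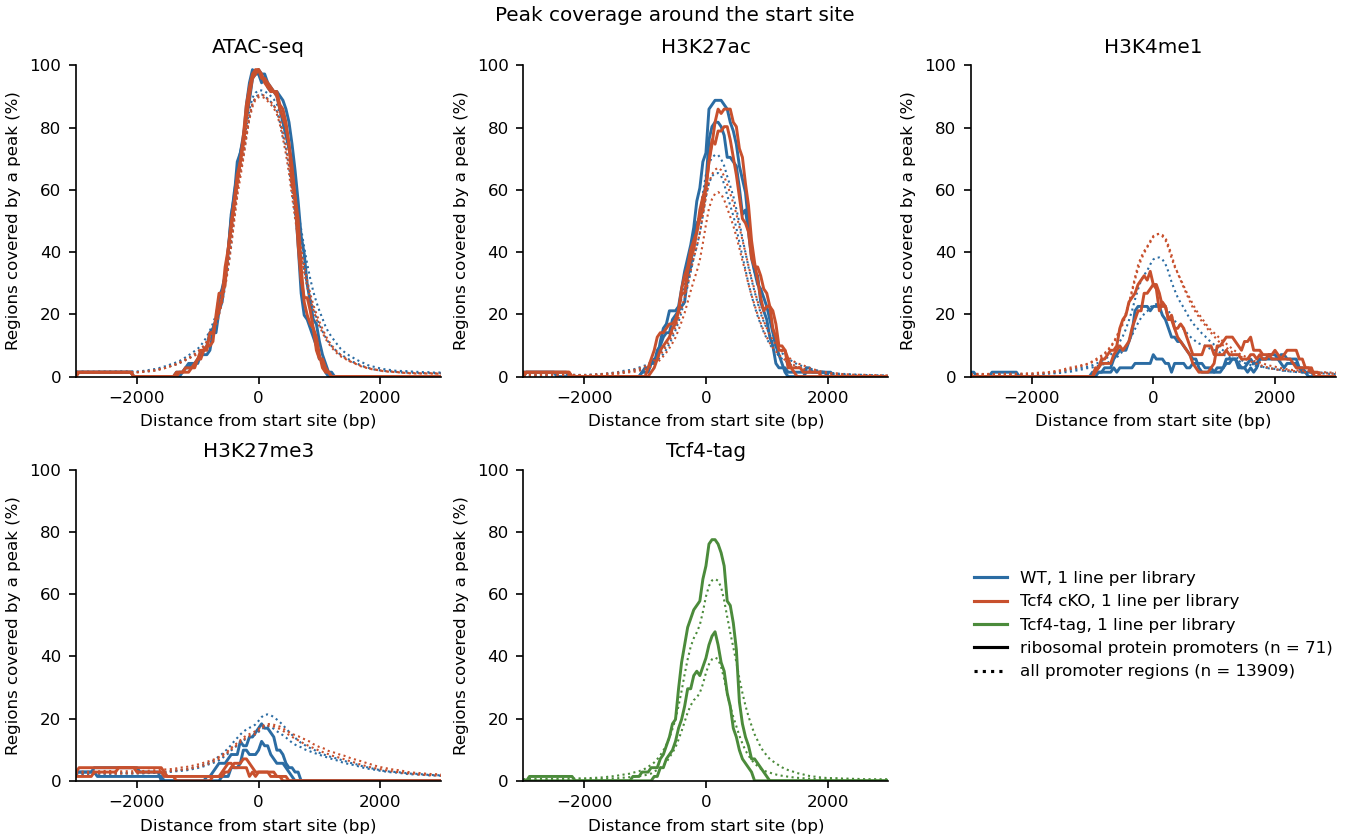
Share of regions covered by a peak (percent) against distance from the start site (bp, positive in the direction of transcription), with 1 line per library; solid lines are the 71 ribosomal protein promoters and dotted lines all 13909 promoter regions. ATAC-seq peaks covered the start site itself in 97.2% to 98.6% of members, H3K27ac was highest 150 to 300 bp downstream, and H3K4me1 lay under the dotted lines around the start.

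The peaks were centred on the start site. ATAC-seq peaks covered the start in 97.2% to 98.6% of members and in 89.7% to 91.9% of all promoter regions. At 1000 bp downstream the shares were 5.63% to 11.3% of members and 16.2% to 21.1% of all promoter regions. The ATAC-seq summit of the members lay at a median of 12, 3, -11 and -9 bp from the start in the 4 libraries, and its interquartile range ran from -60.5 bp at its lowest bound to 87 bp at its highest, whereas that of all promoter regions reached 218 bp. The open regions were 643 to 1722 bp wide with a median of 1248 bp, near the 1213 bp of all promoter regions.

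In the authors' WT mean, in log2 normalized reads over 2 libraries, the members had a median of 8.67 (interquartile range 8.33 to 9.02), against 8.27 (7.38 to 8.95) over all promoter regions. This placed the median member at percentile 65.2 of the promoter regions. The small and large subunit genes had medians of 8.71 and 8.61, and mitochondrial ribosomal protein genes, which build the separate ribosome of mitochondria, had 7.98 over 66 regions. Translation factor genes stood higher, at 9.06 over 31 regions. By fold enrichment, unlike here, the mitochondrial ribosomal protein genes stood above the members in every library.

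Rpl37 had the highest authors' WT mean, 9.81, followed by Rps19 at 9.78, Rps29 at 9.68, Rpl15 at 9.58 and Rpl30 at 9.44. Rps19 takes part in maturation of the 18S rRNA and is mutated in Diamond-Blackfan anaemia. The fold enrichment of the Rpl37 peak was 11.01 and 10.5 in WT and 10.1 and 10.6 in Tcf4 cKO, and that of Rps19 was 10.2 and 9.50 in WT and 9.42 and 9.57 in Tcf4 cKO. The Rpl37 values of the genotypes overlapped, and the Rps19 values of Tcf4 cKO lay on both sides of the lower WT value.

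At the lower end stood Rps4l, a paralogue of Rps4x, with an authors' WT mean of 5.37 and percentile 1.4. The second Rpl13a region, at chr7:45136095-45136827, had 6.57, Rps4x on the X chromosome 7.12, Rpl4 7.65 and Rpl6 7.67. The first Rpl13a region, at chr7:45128422-45129564, had 9.44, so the regions of this gene were at opposite ends of the members. The table assigns them to the start sites of different Rpl13a transcripts.

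Level and fold enrichment did not rank the members alike. Rpl35, Rpl36 and Rpl13 had authors' WT means of 8.72, 8.54 and 8.29 but fold enrichments of 4.96, 4.37 and 4.47 in WT replicate 1, in the lowest part of the members' range of 4.37 to 13.3. Rpl27, with a WT mean of 8.96, held the highest fold enrichment of that library, 13.3. Ribosomal protein genes have many processed pseudogene copies, whose reads and those of the first exon may not be told apart, and these values are uncertain to that extent.

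No ribosomal protein promoter passed a difference of 0.5 between the authors' means. Over all promoter regions 1.98% were higher in Tcf4 cKO by more than that and 3.2% lower. The median member was lower in Tcf4 cKO by a difference of -0.16 on the log2 scale (interquartile range -0.22 to -0.09), that is 0.895 times the WT level. The median of all promoter regions was -0.11, and that of all consensus regions -0.10, so most of this shift was shared with the rest of the table. The SD of the difference across the members was 0.115, against 0.279 across all promoter regions, and was also small in the proteasome (0.133), ribosome assembly factors (0.151) and translation factors (0.167). It was 0.204 in mitochondrial ribosomal proteins and 0.210 in promoters acetylated in both WT libraries. Of the 71 members, 66 lay below 0 (93.0%), against 73.5% of all promoter regions. The share was 83.9% in ribosome assembly factors and 78.6% in promoters acetylated in both WT libraries. Translation factors had 77.4%, the proteasome 71.4% and mitochondrial ribosomal proteins 71.2%. These differences are between 2 authors' means without values per library, so no error is given and none was tested here.

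**Figure D2:**
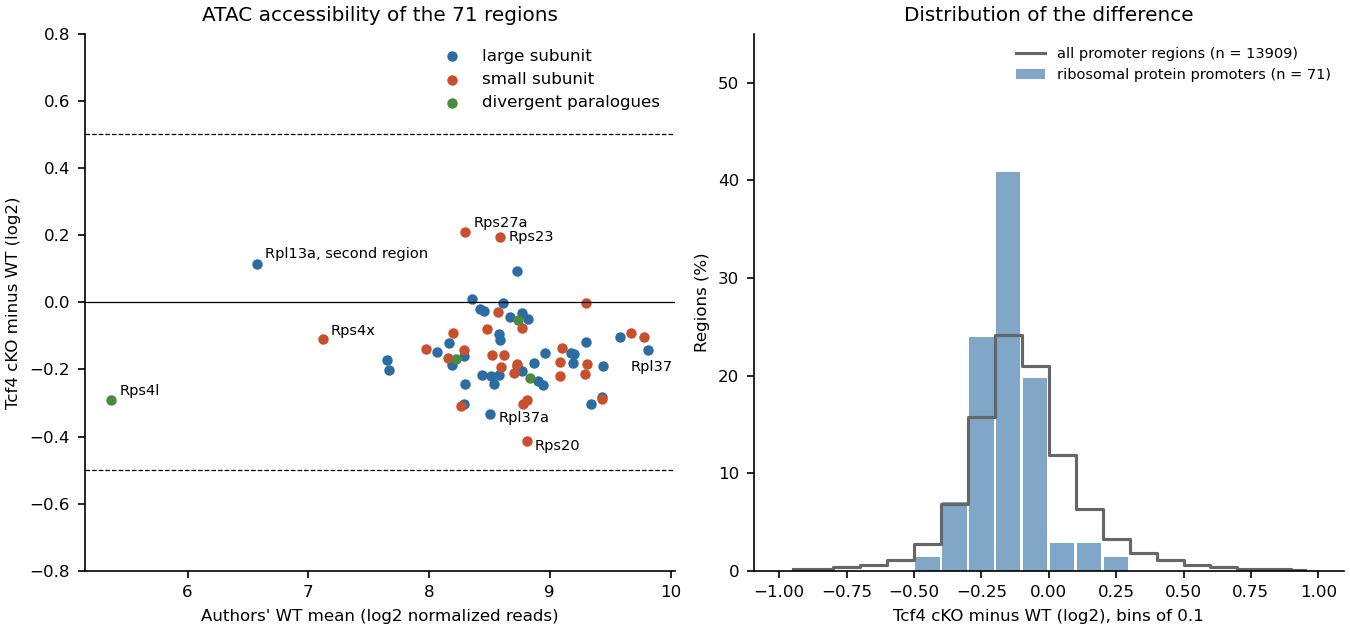
Left, Tcf4 cKO minus WT of the authors' mean ATAC-seq level (log2) against the WT mean (log2 normalized reads), 1 point per region and coloured by subunit, with dashed lines at a difference of 0.5 in either direction. Right, percent of regions in bins of 0.1 of that difference, with bars for the 71 ribosomal protein promoters and the line for all 13909 promoter regions; every member lies between -0.41 and 0.21.

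The largest differences toward Tcf4 cKO were those of Rps27a, which encodes ubiquitin fused to a small subunit protein, at 0.21, and of Rps23, which lies in the decoding centre, at 0.19. They were followed by the second Rpl13a region at 0.11, Rpl35 at 0.09 and Rplp1 at 0.01, and no other member was above 0. The fold enrichment of Rps27a was 10.3 and 9.76 in WT and 11.3 and 9.68 in Tcf4 cKO, and that of Rps23 was 12.4 and 12.1 in WT and 13.7 and 12.7 in Tcf4 cKO. The libraries of the genotypes overlapped at Rps27a and did not overlap at Rps23. The share of all promoter regions without such overlap was not counted.

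Toward WT, the largest differences were those of Rps20 (-0.41), Rpl37a (-0.33), Rps7 (-0.31), Rpl34 (-0.30) and Rps18 (-0.30). The fold enrichment of Rps20 was 11.1 and 10.4 in WT and 9.79 and 10.8 in Tcf4 cKO, with overlapping genotypes. At Rps7 it was 10.7 and 10.1 in WT and 8.75 and 6.88 in Tcf4 cKO, with both Tcf4 cKO libraries lower. The median fold enrichment of all promoter regions was also lower in both Tcf4 cKO libraries. At Rpl37a, the values 9.67 and 8.82 in WT and 10.2 and 8.36 in Tcf4 cKO overlapped. So did those of Rpl34, 9.74 and 8.77 in WT and 9.80 and 8.33 in Tcf4 cKO. Those of Rps18, 7.39 and 6.34 in WT and 7.11 and 7.18 in Tcf4 cKO, also overlapped.

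Among the members with the best known roles, Rpl5 and Rpl11, which with the 5S rRNA bind Mdm2, had WT means of 8.45 and 8.90 and differences of -0.03 and -0.23. Rplp0, the base of the stalk that recruits elongation factors, had 8.67 and -0.04. Rpsa, first known as a laminin receptor, had 8.60 and -0.19, and Rpl10, which joins the large subunit late, had 8.77 and -0.20. Rps6 had 9.43 and -0.29, and Rps14 had 9.10 and -0.14. All 8 of these, Rps19 with -0.10 included, were thus lower in Tcf4 cKO by less than 0.5, as the median promoter was.

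H3K27ac was present at nearly all of these promoters. In WT replicates 1 and 2, 97.2% (Wilson 95% interval 90.3 to 99.2) and 91.5% (82.8 to 96.1) of members had a peak, and in Tcf4 cKO replicates 1 and 2, 95.8% (88.3 to 98.6) and 90.1% (81.0 to 95.1). Over all promoter regions the shares were 85.3%, 80.3%, 81.6% and 75.2%. The intervals cover counting error over regions only. Peaks in both libraries were found at 65 of 71 members in WT and 63 in Tcf4 cKO (91.5% and 88.7%), beside 77.1% and 72.1% of all promoter regions, and 60 members had one in all 4 libraries. Mitochondrial ribosomal protein promoters had shares of 87.9% and 90.9% and proteasome promoters 96.4% in each genotype, so housekeeping genes of other kinds stood at similar shares.

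The acetylation peaks were frequent but of ordinary height. Their median fold enrichment at the members was 4.51 and 4.36 in WT and 4.35 and 4.23 in Tcf4 cKO, against 4.62, 4.51, 4.55 and 4.41 at all promoter regions. They were wider, with a median of 874 to 945 bp against 719 to 830 bp. The summit lay downstream of the start, at a median of 202 to 233 bp. Among the most enriched was Rpl21, with 6.88 and 5.89 in WT and 7.23 and 6.18 in Tcf4 cKO. Rps23 had 6.71, 6.29, 6.67 and 6.88, and Rps27l, a paralogue induced by p53, had 7, 5.38, 6.40 and 5.29 in the same order.

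In WT, 6 members lacked H3K27ac in at least 1 library. Rpl32, Rps10, Rpl28 and Rps4x had a peak in replicate 1 alone, with fold enrichments of 2.78, 3.73, 3.06 and 3.98, and Rpl23a and Rps4l had none. In Tcf4 cKO, both regions of Rpl13a, Rps2, Rpl35, Rpl28, Rpl23a and Rps4l were among those that lacked one in at least 1 library. Only Rps4l had no H3K27ac peak in any library, and Rpl23a had 1, in Tcf4 cKO replicate 2 with a fold enrichment of 4.16. The second Rpl13a region was acetylated in both WT libraries, at 2.98 and 4.04, and in neither Tcf4 cKO library. This pattern was seen at 2.22% of all promoter regions, and the opposite one at 0.604% and at 0 members.

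**Figure D3:**
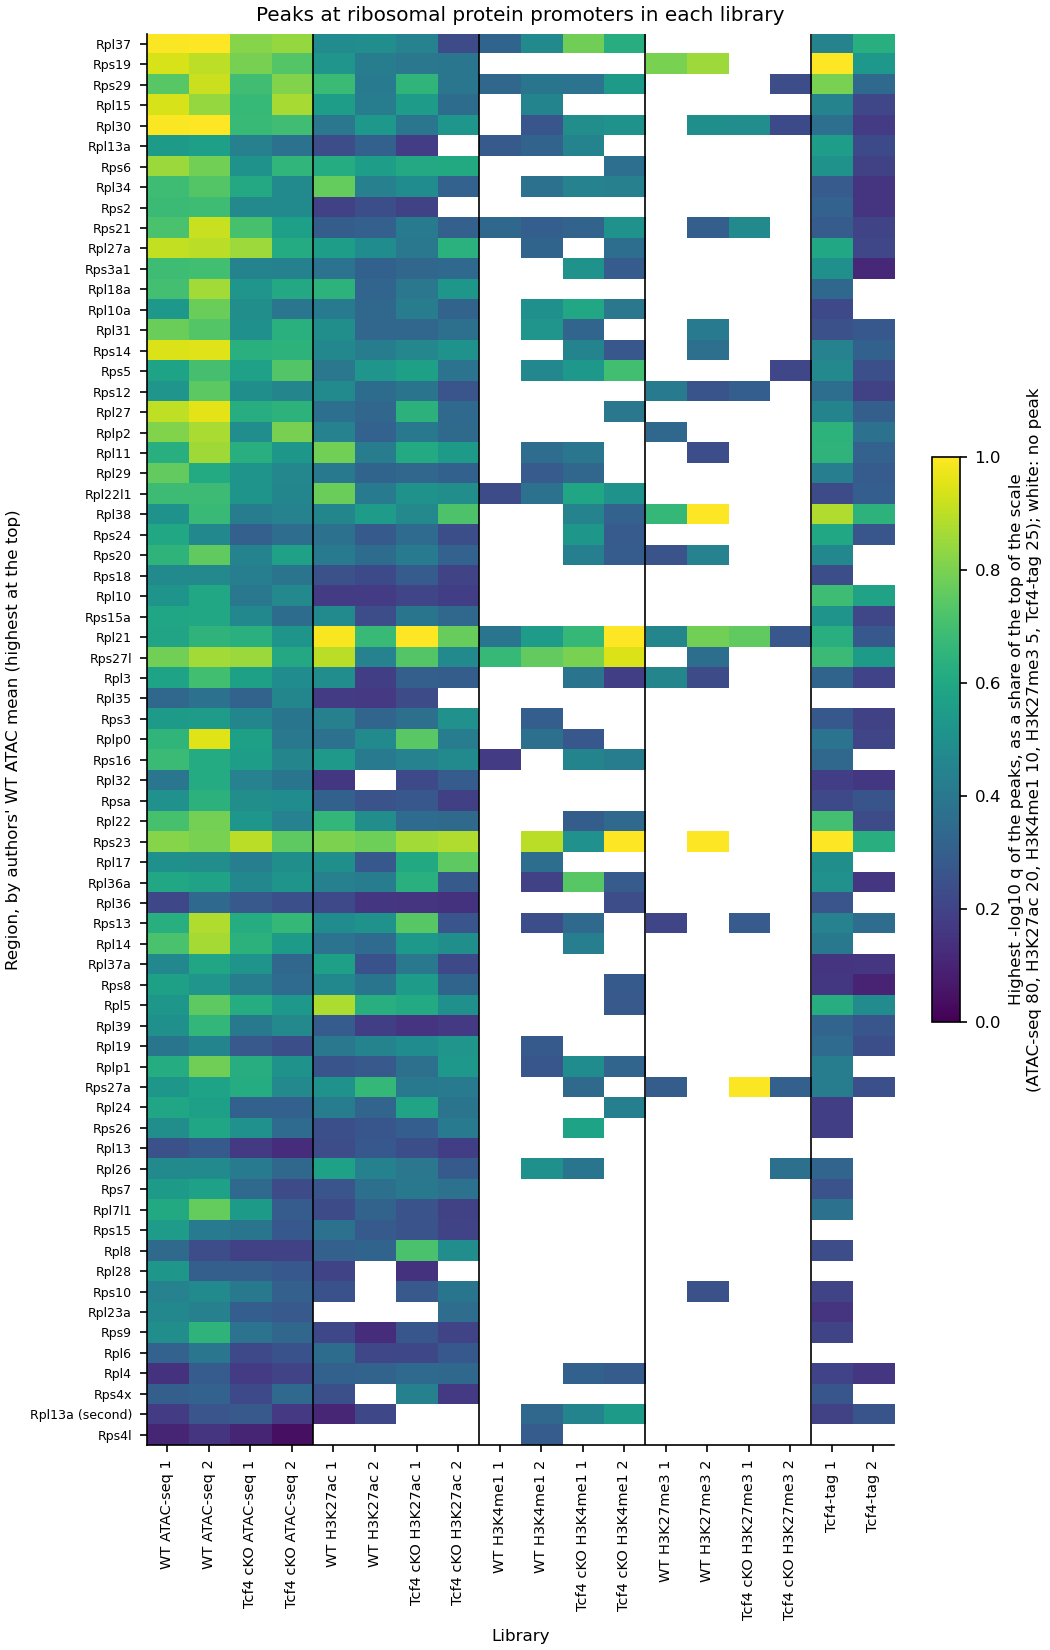
Highest -log10 q of the peaks on the regions reported by name (rows, by authors' WT ATAC-seq mean) in each of the 18 libraries (columns), as a share of the top of the scale of its assay; white cells have no peak. The ATAC-seq and H3K27ac columns are nearly filled, H3K4me1 and H3K27me3 are sparse, and the second Tcf4-tag column has more white cells than the first.

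H3K4me1 peaks were less frequent at ribosomal protein promoters than at promoters in general. A peak was found in 8 of 71 members in WT replicate 1 (11.3%, interval 5.82 to 20.7) and 27 in WT replicate 2 (38.0%, 27.6 to 49.7), and in 33 and 30 in Tcf4 cKO replicates 1 and 2 (46.5% and 42.3%). All promoter regions had 46.1%, 63.3%, 72.5% and 72.2%. The members were thus lower in each of the 4 libraries. These counts cover peaks that touch the open region. The members were still lower 1000 bp downstream of the start in each library, but not at 2000 bp. There a peak covered 7.04%, 5.63%, 8.45% and 5.63% of members, on few regions. All promoter regions had 2.39%, 2.43%, 3.18% and 2.37% at that distance. Peaks in both libraries were found at 7 members in WT (9.86%) and 23 in Tcf4 cKO (32.4%), beside 40.6% and 63.1% of all promoter regions. Restricted to promoters with H3K27ac in both WT libraries, the general shares were 41.2% and 66.1%.

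The shares were higher in each of 4 lists of other housekeeping promoters, though that of the proteasome in WT was close. Mitochondrial ribosomal protein promoters had H3K4me1 in both libraries at 45.5% of regions in WT and 72.7% in Tcf4 cKO, ribosome assembly factors at 35.5% and 58.1%, and translation factors at 32.3% and 45.2%. Proteasome promoters had 14.3% and 60.7%. No H3K4me1 peak in any library was found at 26 members (36.6%) and at 15.2% of all promoter regions. Acetylation in all 4 libraries with no H3K4me1 peak on the open region in any was the state of 18 members (25.4%). It was that of 8.02% of all promoter regions. Translation factors stood at 19.4%, ribosome assembly factors at 12.9%, mitochondrial ribosomal proteins at 4.55% and the proteasome at 0 regions. Of the small subunit regions 13 of 28 had no H3K4me1 peak, and of the large subunit regions 12 of 39.

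**Figure D4:**
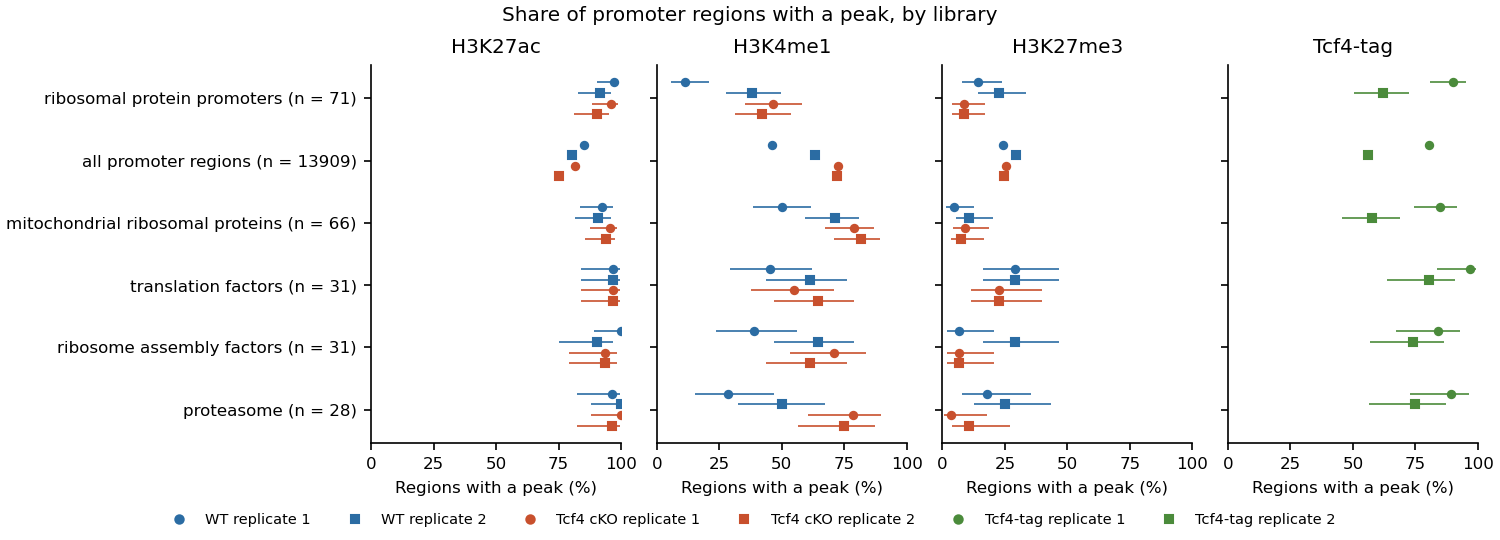
Share of promoter regions with a peak (percent) in each library, for the ribosomal protein promoters, all promoter regions and 4 lists of other housekeeping genes; circles are replicate 1, squares replicate 2, and bars Wilson 95% intervals over regions. For H3K4me1 the ribosomal protein promoters lie at 11.3% to 46.5% and all promoter regions at 46.1% to 72.5%.

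The higher counts of H3K4me1 in Tcf4 cKO were also seen over all promoter regions, and their size rested partly on WT replicate 1. That library had the fewest members with a peak and also the lowest share over all promoter regions and the shortest list, 51510 peaks. With the 51510 peaks of highest q in each list, 8 and 25 members had a peak in WT and 27 and 20 in Tcf4 cKO, and the genotypes overlapped. Without WT replicate 1 the WT count was 27, beside 33 and 30 in the single Tcf4 cKO libraries. The part of list length and of this library in the result was not tested. Both libraries of Tcf4 cKO but none of WT had a peak at 8 members, namely Rpl22, Rpl3, Rpl38, Rpl4, Rps14, Rps20, Rps24 and Rps3a1, beside 6.97% of all promoter regions. The opposite was found at 0 members and at 0.316% of all promoter regions.

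The 6 members with H3K4me1 in all 4 libraries were Rpl37, Rps29, Rps21, Rpl21 and the paralogues Rpl22l1 and Rps27l. This was 8.45% of members, against 37.6% of all promoter regions. The fold enrichment of Rps27l was 5.30 and 5.41 in WT and 5 and 5.56 in Tcf4 cKO. At Rpl21 it was 3.82 and 4.38 in WT and 4.05 and 5.55 in Tcf4 cKO, and at Rpl37 3.48 and 3.91 in WT and 4.29 and 3.88 in Tcf4 cKO. All of these overlapped between genotypes. Rps23 had no peak in WT replicate 1 and 5.90 in WT replicate 2, with 4.14 and 6.53 in Tcf4 cKO, and so was the highest member of 1 WT library without a peak in the other.

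H3K27me3 peaks were few and short. A broad peak was found at 14.1% and 22.5% of members in WT and at 8.45% in each Tcf4 cKO library, against 24.2%, 29.3%, 25.4% and 24.7% of all promoter regions. A peak in any library was found at 22 members (31%) and at 43.3% of all promoter regions, and in all 4 libraries at 1 member and at 12.8% of all promoter regions. In any library, mitochondrial ribosomal proteins had 19.7%, ribosome assembly factors 32.3%, the proteasome 35.7% and translation factors 51.6%. Of these lists, only translation factors had regions with a peak in all 4 libraries, at 6.45%. A low share was thus not particular to the members. The median width at the members was 430 to 616 bp, against 879 to 1219 bp at all promoter regions, and 1 of the peaks was over 2000 bp. Their median fold enrichment was 3.14 and 2.95 in WT and 3.49 and 2.99 in Tcf4 cKO, against 2.98, 2.94, 2.86 and 2.88 at all promoter regions. The few peaks were thus not lower than elsewhere in fold enrichment, but they were in -log10 q. Its median at the members was 1.87 and 1.82 in WT and 2.42 and 1.27 in Tcf4 cKO, against 2.41, 2.40, 2.48 and 2.33. The highest -log10 q at a member was 5.63, at Rpl38 in WT replicate 2, and 2 members, Rpl38 and Rps23, passed a -log10 q of 5.

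Rpl21 alone had H3K27me3 in all 4 libraries, with fold enrichments of 3.42 and 3.83 in WT and 4.21 and 3.03 in Tcf4 cKO, on a promoter that was also among the most acetylated members. Rpl30, Rps12 and Rps27a had it in 3 libraries. At Rps27a the fold enrichment was 3.20 in WT replicate 1 and 4.80 and 3.24 in Tcf4 cKO. Small subunit promoters had an H3K27me3 peak in any library at 13 of 28 regions (46.4%) and large subunit promoters at 8 of 39 (20.5%). In each of the 4 libraries the small subunit share was higher, on few regions. These were 6 and 9 small and 4 and 6 large subunit regions in WT, and 4 and 3 against 2 and 3 in Tcf4 cKO. The Wilson intervals of the subunits overlapped in each library.

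Both WT libraries and neither Tcf4 cKO library had H3K27me3 at 5 members, among them Rpl3, Rpl38, Rps19 and Rps20, beside 2.6% of all promoter regions. The opposite was found at 0 members and at 2.06% of all promoter regions. At Rps19 the fold enrichment was 3.75 and 3.59 with -log10 q of 4.0 and 4.27. Rpl3, Rpl38 and Rps20 were also among the 8 members with H3K4me1 in Tcf4 cKO alone. The share of all promoter regions with both patterns was not counted, and a link between the marks was not tested. The -log10 q of H3K27me3 in WT replicates 1 and 2 was 2.28 and 1.16 at Rpl3 and 1.27 and 2.21 at Rps20. At Rpl38 it was 3.32 and 5.63. The number of members with H3K27me3 also moved with library within WT, from 10 to 16.

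Tcf4 was found at most ribosomal protein promoters, at about the frequency of other active promoters. Peaks were present at 64 of 71 members in replicate 1 (90.1%, interval 81.0 to 95.1) and at 44 in replicate 2 (62.0%, 50.3 to 72.4), against 80.6% and 56.1% of all promoter regions. Regions reproducible in both libraries covered at least 30% of the promoter at 43 members (60.6%, interval 48.9 to 71.1), beside 53.4% of all promoter regions. Among promoters acetylated in WT the share was 64.9%, inside that interval. Translation factors had 80.6% and mitochondrial ribosomal proteins 51.5%. The 7 members with no Tcf4 peak in either library included Rpl35, Rpl13, Rps15, Rpl28, Rpl6 and Rps4l. Of these, Rpl35 and Rpl13 were also among those with the lowest ATAC-seq fold enrichment. The share of all promoter regions without a Tcf4 peak in either library was not counted.

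The strongest Tcf4 peaks, by the lower -log10 q of both libraries, were at Rpl38, Rps23, Rpl10, Rps27l, Rps19, Rpl5, Rpl37, Rplp2, Rps13 and Rps29. Rps23 had fold enrichments of 10.3 and 8.88, Rpl10 8.09 and 8.63, and Rpl5 8.24 and 8.33. Rpl38 had 6.81 and 7.55, Rps27l 7.52 and 8.45, and Rps19 7.57 and 6.99. The median member with a peak had 5.24 and 5.36, below all of these in both libraries. The genes were chosen for the strength of these same peaks, so standing above the median is no separate result. At Rpl10 the reproducible Tcf4 region covered 28.8% of the promoter, just under the limit of 30%. The authors' ATAC-seq difference of these 10 ran from -0.25 at Rplp2 to 0.19 at Rps23.

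E-boxes, the CANNTG sites that bHLH factors bind, were less frequent under these peaks than under promoter peaks in general in replicate 1, while the interval of replicate 2 held the general share. Within 75 bp of the Tcf4 summit, 14 of 66 peaks at ribosomal protein promoters (21.2%, interval 13.1 to 32.5) held a CANNTG in replicate 1 and 14 of 45 (31.1%, 19.5 to 45.7) in replicate 2. Peaks at all promoter regions had 38.4% and 38.8%, and peaks outside promoter regions 56.8% and 56.8%. The E-box CAGCTG was found in 0 of 66 and 0 of 45 (upper bounds 5.50% and 7.87%), against 9.84% and 10.8% at all promoter regions and 17.3% and 19.7% outside them. The median fold enrichment of these peaks was 5.19 and 5.30, against 5.10 and 5.29 at all promoter regions. A match here is a description of letters and not a bound site.

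Of the 10 strongest, 6 had no CANNTG within 75 bp of the summit in replicate 1. In that library 38.4% of peaks at all promoter regions and 21.2% of those at members held one. Its lack was thus common among promoter peaks and not particular to the strongest. The whole window of Rps19, which held none, is shown as an example, with the summit base in capitals, on the plus strand and upstream of the start.
Rps19, chr7:24884214-24884364, plus strand: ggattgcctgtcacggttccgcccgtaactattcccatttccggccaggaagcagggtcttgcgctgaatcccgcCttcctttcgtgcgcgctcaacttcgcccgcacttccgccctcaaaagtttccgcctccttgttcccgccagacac
At Rpl5 an E-box lay 8 bases before the summit, read on the plus strand, and is shown in capitals.
Rpl5, chr5:107900721-107900770, plus strand: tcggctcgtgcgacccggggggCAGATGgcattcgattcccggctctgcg
Rpl38, Rplp2 and Rps13 each held 1 CANNTG, at 45 bases before, 29 bases after and 56 bases before the summit.

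The same short motifs were then counted in windows of the same length at every promoter, from 250 bases before to 50 bases after the start site given in the table. CGGAAG on either strand was found in 39 of 71 members (54.9%, interval 43.4 to 66.0) and in 26.7% of all promoter regions. CTTTC, the core of many TOP sequences, on the transcript strand, was found in 37 (52.1%, 40.7 to 63.3) and 31.2%. AAGATGG, a core bound by YY1, and GCGCATG, part of the NRF1 motif, were each found in 9 members (12.7%) and in 865 promoter regions (6.22%). The members with each were different genes except for Rpl23a, which held both. TGACGT, part of the CRE, was found in 18.3% and 10.9%. Longer matches can hold more than 1 of these motifs.

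**Figure D5:**
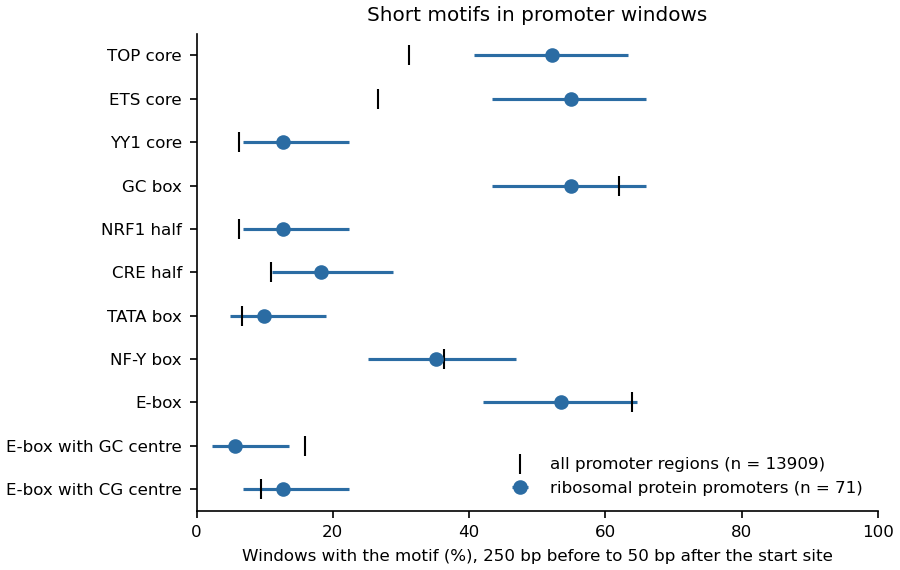
Share of windows (percent) that hold each short motif from 250 bp before to 50 bp after the start site; points with Wilson 95% intervals are the 71 ribosomal protein promoters and vertical ticks all 13909 promoter regions. The ETS core lies at 54.9% against 26.7% and the E-box with a GC centre at 5.63% against 15.9%.

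The other motifs lay on either side of their general shares. GGGCGG, the GC box, was found in 54.9% of members and 62.0% of all promoter regions, CCAAT in 35.2% and 36.4%, and TATAAA in 9.86% and 6.69%. CANNTG was found in 53.5% and 63.9%, CAGCTG within it in 5.63% and 15.9%, and CACGTG, the site of Myc among others, in 12.7% and 9.50%. The windows of the members had a median GC content of 56.3% (40.7% to 71%), below the 60.7% of all promoter regions, with the same median of 20 CG dinucleotides. The RefSeq start lay a median of 11.5 bases from the start in the table and within 100 bases at 43 of 50 members.

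A list of 77 cytosolic ribosomal proteins, which is not complete, shows genes that the rule missed. It found 28 of 31 small subunit and 38 of 46 large subunit genes. Of the other 11, the start sites of 10 lay in consensus regions that the table names for another gene, such as Rpl12 with Lrsam1, Rpl41 with Zc3h10, Rpl9 with Lias, Rps27 with Rab13 and Rps28 with Ndufa7. These 11 regions, 2 of them at start sites of Rpl18, had a median authors' WT mean of 8.72 (7.79 to 10.2) and a median difference of -0.21 (-0.36 to 0.09). H3K27ac was present in both WT libraries at 10 of the 11, H3K4me1 in both WT libraries at 1, the more upstream Rpl18 region, and in both Tcf4 cKO libraries at 3, and Tcf4 covered at least 30% at 7. Rps25 had peaks at its start in the ATAC-seq lists but no consensus region within 9714 bp. Among the 71 members, 4 lay head to head with another protein-coding gene within 1000 bp (5.63%, against 6.47% of all promoter regions), namely Rpl15 with Nkiras1, Rpl4 with Zwilch, Rps18 with Vps52 and Rps27a with Clhc1. The table names 1 gene for each region, which removes some such pairs from the members.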

How the data were processed

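Peak lists of 18 libraries and the table of consensus ATAC-seq regions were used. The authors trimmed reads with Trim Galore, aligned them to mm10 with Bowtie2, removed duplicates with SAMtools and ran MACS2 per library, with broad peaks for H3K27me3. Each deposited list gives a fold enrichment (a ratio to local background) and a -log10 q-value. The deposited consensus table, made by the authors with IDR, DiffBind, DESeq2 and ChIPseeker, gives the mean log2 normalized reads per genotype. Its fold change, p-value and FDR columns, and a table of footprint scores, were not used. Single-cell RNA-seq was not analysed here.

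Libraries were assigned to genotype and assay by their titles and genotype labels. Members, gene lists and motifs were chosen with earlier results of these data known. The lists of cytosolic and mitochondrial ribosomal proteins, translation factors, ribosome assembly factors, the proteasome and cell type markers were written from general knowledge. A region held a peak when they shared at least 1 bp, and counted as holding Tcf4 when merged regions with peaks in both Tcf4-tag libraries spanned 30% of its length or more. Differences are Tcf4 cKO minus WT of the authors' means, with 0.5 as the limit. No test was made, since 2 libraries against 2 cannot give less than p = 0.33 in an exact permutation test. Replicates are separate libraries, and whether they are separate animals is not given in the sources used here. Named genes are the 5 highest and 5 lowest in WT accessibility, the 5 largest differences each way, members without H3K27ac in both libraries of a genotype, those with H3K27me3 in most libraries, the 10 strongest Tcf4 peaks, genes with more than 1 region, paralogues, and 8 with well-known roles. Other genes named were chosen after their values were seen. Some members are counted but not reported by name here. Sequences were read from GRCm38.p6, the build of mm10, and from RefSeq promoter windows with Python 3.11.15, pandas 2.3.3, scipy 1.17.1, pysam 0.24.0 and samtools 1.23.1. GENCODE M21 gave neighbouring start sites, and matplotlib 3.10.9 drew the plots. Overlaps, merging and the motif search were tested on simulated data. Alternatives were another q limit, overlap, window, member list and threshold, and each library left out.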

Additional observations from a re-analysis of the deposited data

How the results depend on the processing

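Of 112 values from alternatives to 23 results, 95 stayed within the limits set for a like value and 17 moved. At a -log10 q of at least 5, H3K4me1 in both libraries was at 1 member in WT in place of 7 and at 6 in Tcf4 cKO in place of 23, and H3K27me3 in any library at 2 in place of 22. With a peak over at least 50% of the region, these were 0, 7 and 6. Within 250 bp of the start site, H3K4me1 in both WT libraries was at 4 members. With equal lists, added after seeing the data, H3K4me1 in both Tcf4 cKO libraries was at 14.

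Leaving out a replicate, H3K4me1 in WT ran from 8 to 27 and in Tcf4 cKO from 30 to 33 members, with 27 without WT replicate 1. H3K27ac ran from 65 to 69 and from 64 to 68, H3K27me3 in any library from 15 to 22, Tcf4 from 34 to 61, and ATAC-seq peaks stayed at 71. At a difference of 0.25, 10 members were lower in Tcf4 cKO and 0 higher. The shares of all promoter regions at this limit were not counted. The lower and upper quartiles of the difference were -0.216 and -0.0931 at the members and -0.219 and 0.00888 over all promoter regions.

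Within 75 bp of the region centre, a shorter window, the motif shares were 33.8% for CTTTC, 19.7% for CGGAAG, 5.63% for GCGCATG, 7.04% for TGACGT, 9.86% for CCAAT and 28.2% for CANNTG, and in RefSeq windows CGGAAG reached 68.0%. In all promoter regions these were 14.8%, 13.4%, 2.14%, 3.57%, 13.9% and 37.0%, and CGGAAG had 30% in RefSeq windows. Against all promoter regions, 2 motifs changed sides: GGGCGG was lower in the members at the start site but 45.1% against 40.0% near the centre, and CACGTG was higher at the start site but 8% against 10.3% in RefSeq windows.

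Adding the 11 regions named for another gene, also chosen after seeing the data, moved none of the results it was tried on beyond those limits. No paired analysis was possible because no result comes from a test between libraries. Peak lists carry no read depth, so a missing peak was not detectable at the depth of that library, and is not absence.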
